A study of Mus musculus with 25 samples.

Results

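The comparison set hematopoietic stem cells that carry mutant JAK2 and lack the interleukin-1 receptor against stem cells that carry mutant JAK2 alone, 4 weeks after induction. Its members were chosen by genotype and time in the library names: 3 libraries of SclCre;V617F;IL-1R1-/-GFP, called Il1r1KO here, and 3 of SclCre;V617F;GFP, called VF here, which makes 6 of the 25 libraries of the series. Replicates are numbered 5, 6 and 7 in each group, as in the titles. The cells came from mice that had been engrafted with marrow of these donors. Tamoxifen was started 16 weeks later, and for RNA sequencing of small inputs the marrow was sorted for Lin-Sca1+cKit+CD48-CD150+ cells. Both groups carry the tamoxifen-inducible Cre under control of Scl elements, the human JAK2 V617F construct and a GFP construct, and both received tamoxifen, so that the receptor alleles are the difference named in the labels. The sort as described names no donor marker and no GFP gate, and the share of donor cells was not measured here. Libraries of 2 and 4 weeks were processed as 2 batches, and both groups of the main comparison lie within 1 batch. Other groups are set beside them. These are Il1r1KO and VF libraries of 2 weeks, and 3 libraries of 4 weeks named SclCre;V617F;IL-1b-/-GFP, called Il1bKO, with mutant JAK2 and without Il1b. SclCre;GFP libraries of 2 weeks, with neither V617F nor a knockout in their labels, are used as well. The labels tie no library to a named mouse, so the p-values measure the spread between libraries. In the main edgeR fit this spread is taken over all 25 libraries in 7 groups, those of 2 weeks included, and not over the 6 compared libraries alone.

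Interleukin-1 acts through IL1R1, which pairs with the accessory protein IL1RAP and recruits MYD88, IRAK kinases and the ligase TRAF6, and the signal ends in activation of NF-kB and MAP kinases. JAK2 V617F is the activating mutation behind most myeloproliferative neoplasms and drives STAT5 signalling downstream of cytokine receptors. In stem cells interleukin-1 is known to promote division and myeloid differentiation, and mutant JAK2 clones are known to produce inflammatory cytokines.

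The libraries held 24328608 to 27920010 gene counts in Il1r1KO and 26607966 to 31968194 in VF. The stem cell markers Slamf1, Procr, Kit, Ly6a, Hlf, Mecom and Fgd5 had reads in every library, and the level summed over these 7 was 1164 to 1473 CPM (counts per 1e6 counts, with TMM factors) in Il1r1KO and 1529 to 1675 CPM in VF, lower in Il1r1KO without overlap. The 7 did not share that order, and Kit was at 461 to 698 CPM in Il1r1KO and 621 to 734 CPM in VF. The 5 measured neutrophil and monocyte markers summed to 1.34 to 11.3 CPM in Il1r1KO and 1.44 to 83.0 CPM in VF, where Mpo was at 72.2 CPM in VF 7 and at 0 in VF 5 and VF 6. The 3 erythroid markers summed to 22.4 to 226 CPM in Il1r1KO and 85.0 to 288 CPM in VF. The 3 megakaryocyte markers summed to 444 to 648 CPM in Il1r1KO and 295 to 1772 CPM in VF, with the highest value in VF 6. The 2 measured T and NK cell markers summed to 71.5 to 128 CPM in Il1r1KO and 29.4 to 78.1 CPM in VF. The 2 measured mast cell and basophil markers summed to 0.759 to 5.85 CPM in Il1r1KO and 6.73 to 14.3 CPM in VF, without overlap. The B cell marker Ebf1 was at 1.16 to 2.10 CPM in Il1r1KO and 1.01 to 1.33 CPM in VF. The macrophage, endothelial and stromal markers checked are not among the genes analysed here.

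The receptor gene itself gave no sign of the allele. Il1r1 (ENSMUSG00000026072, mm10 chr1:40225080-40317257) had 543, 271 and 460 reads in Il1r1KO 5, 6 and 7, against 547, 262 and 460 reads in VF 5, 6 and 7. That is 24.2, 9.79 and 17.6 CPM in Il1r1KO and 20.7, 9.48 and 14.4 CPM in VF (log2 0.21, SE 0.69, adjusted p = 0.949, edgeR quasi-likelihood test, Benjamini-Hochberg). The groups overlapped. Counts over the whole gene do not show which exons are left in a knockout allele, so the label could not be checked from this table.

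The constructs, which every library of both groups carries, were at unequal levels. The GFP construct had 1473, 927 and 1007 CPM in Il1r1KO, against 489, 541 and 505 CPM in VF, a 2.22-fold higher mean (log2 difference 1.12, exact two-sided permutation p = 0.1). The part of human JAK2 counted as exons 3 to 12 had 140, 144 and 178 CPM in Il1r1KO, against 116, 108 and 115 CPM in VF (log2 0.43, exact permutation p = 0.1). The part with exons 13 to 25 had 102, 98.8 and 81.6 CPM in Il1r1KO, against 54.1, 60.8 and 43.6 CPM in VF (log2 0.83, exact permutation p = 0.1). CreERT2 had 430, 426 and 448 CPM in Il1r1KO, against 388, 195 and 225 CPM in VF (log2 0.76, exact permutation p = 0.1). Each of the 4 constructs was higher in every Il1r1KO library than in any VF library, and 0.1 is the smallest p that 3 against 3 libraries can give. At 2 weeks the GFP construct stood at 868 to 972 CPM in Il1r1KO and 462 to 480 CPM in VF, and JAK2 exons 13 to 25 at 104 to 115 CPM in Il1r1KO and 39.1 to 53.7 CPM in VF. Libraries without Il1b at 4 weeks had 385, 519 and 530 CPM of the GFP construct, 86.6, 65.8 and 110.0 CPM of JAK2 exons 3 to 12, and 99.7, 45.0 and 69.6 CPM of JAK2 exons 13 to 25. Their CreERT2 level was 828, 634 and 445 CPM, so that the order of the groups differed between constructs. The endogenous Jak2 gene was at 79.2, 87.2 and 92.6 CPM in Il1r1KO and at 103, 110 and 117 CPM in VF, without overlap, and did not pass the edgeR test (log2 -0.35, SE 0.20, adjusted p = 0.483). In sorted bulk samples, fewer cells that express a construct or gene and less RNA of it per cell cannot be told apart.

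**Figure D1:**
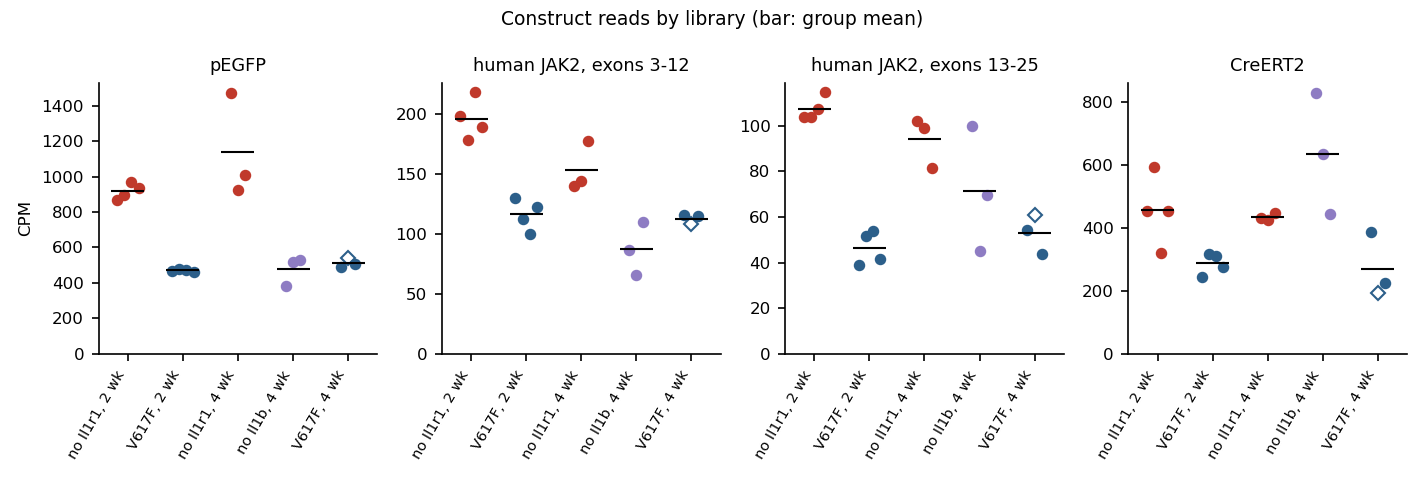
Reads of the 4 construct sequences in CPM (y axis) in each library, for V617F cells without Il1r1 and V617F cells at 2 and 4 weeks and V617F cells without Il1b at 4 weeks; bars are group means and the open diamond is VF 6. The GFP construct lies at 868 to 1473 CPM in all 7 libraries without Il1r1 and at 462 to 541 CPM in the VF libraries.

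Of the VF libraries, VF 6 stood apart in several gene groups. It was the highest VF library in 33 of 36 interferon gamma response genes, 45 of 48 type I interferon genes, 9 of 10 MHC class II genes, 22 of 23 MHC class I and immunoproteasome genes, 55 of 57 S phase genes, 58 of 63 mitosis genes and 28 of 37 megakaryocyte genes. Over all tested genes it was the highest VF library for 36.4%. Il1b had 84, 46 and 55 reads in Il1r1KO, against 19, 391 and 1 reads in VF. Fold changes of these groups are therefore given with and without VF 6.

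Receptor loss was tested over 13630 genes. At an adjusted p of 0.05 the edgeR test called 2 genes higher in Il1r1KO (0.0147% of the genes tested) and 18 lower (0.132%). At an unadjusted p of 0.05, 891 genes were higher (6.54%) and 840 lower (6.16%), and the 3 Il1r1KO libraries lay wholly above the 3 VF libraries in 880 genes (6.46%) and wholly below them in 907 (6.65%). Without VF 6 the test called 41 genes higher (0.301%) and 98 lower (0.719%). These 139 hold 19 of the 20 genes called with all libraries, the exception being Gbp4. DESeq2 called 76 higher (0.559%) and 155 lower (1.14%), among them all 20, and limma voom with quality weights called 207 higher (1.52%) and 199 lower (1.46%), among them 16 of the 20. A fit of the 6 libraries alone called 1 gene, Wdfy1 (adjusted p = 0.00722, edgeR). Leaving out 1 library at a time gave 5 calls without Il1r1KO 5, 1 without Il1r1KO 6, 5 without Il1r1KO 7, 2 without VF 5 and 15 without VF 7. Of the 20, only Trak2 was called in each of the 6 fits that left out 1 of these libraries; Treml2 and Lancl1 lost the call in 3 of them and the other genes in 4 or 5. Il1bKO 5, a library of the third 4-week group whose spread enters the fit, detected 11871 genes, against 13039 or more in every other library, and without it 83 genes were called.

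**Figure D2:**
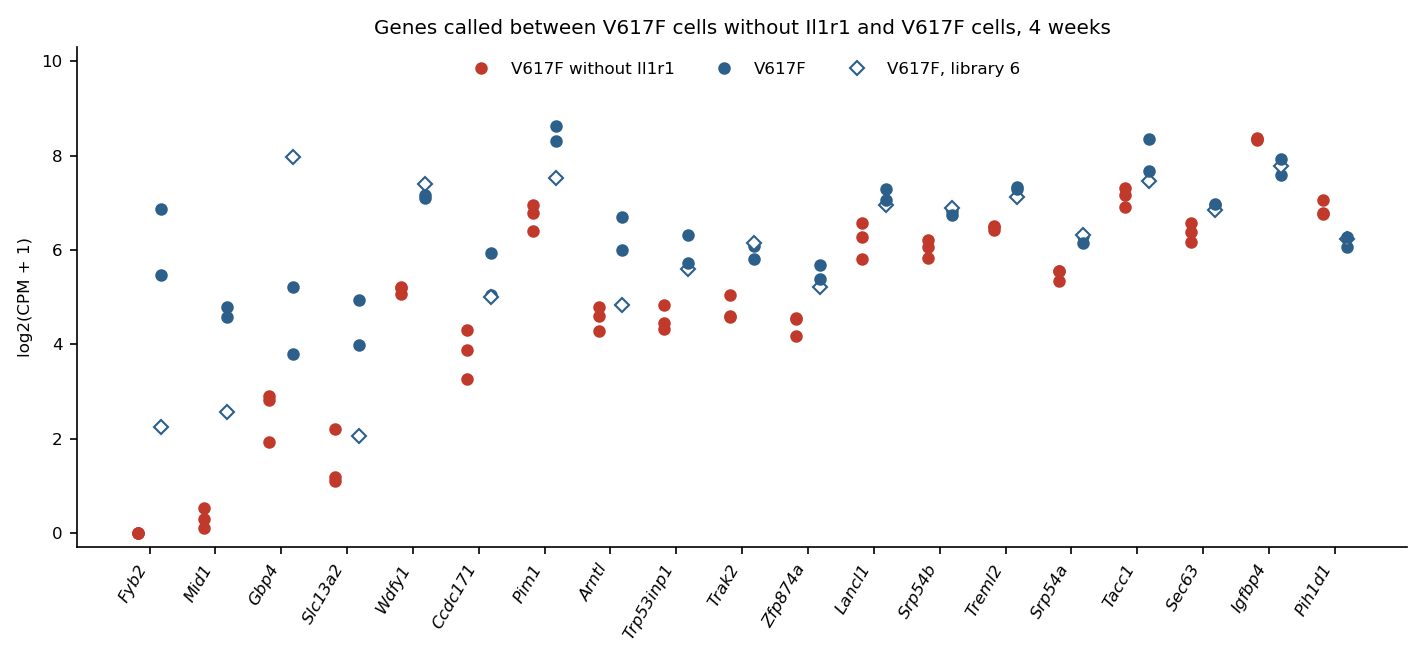
19 of the 20 genes called at 4 weeks, as log2(CPM + 1) on the y axis, with the 3 libraries of V617F cells without Il1r1 on the left and the 3 V617F libraries on the right of each gene; the open diamond is VF 6. The groups are apart in each gene shown except Slc13a2, and Fyb2 is at 0 in all libraries without Il1r1.

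Trak2 (ENSMUSG00000026028, mm10 chr1:58900449-58973430), an adaptor that links mitochondria to kinesin motors, had the lowest adjusted p. It stood at 31.8, 23.3 and 23.1 CPM in Il1r1KO, against 66.8, 69.4 and 54.8 CPM in VF (log2 -1.29, SE 0.15, adjusted p = 2.3e-04, edgeR). The groups were far apart and VF 6 lay with the other VF libraries. Lancl1, a glutathione-binding protein, had 94.3, 75.8 and 54.9 CPM in Il1r1KO, against 155, 123 and 132 CPM in VF (log2 -0.87, SE 0.15, adjusted p = 0.0268). Wdfy1, an endosomal protein that assists Toll-like receptor signals, had 36.0, 32.6 and 35.7 CPM in Il1r1KO, against 136, 169 and 143 CPM in VF (log2 -2.10, SE 0.39, adjusted p = 0.0316). Both groups were tight, and the reads of Wdfy1 cannot be told from those of Mrpl44, which overlaps it on the other strand, in unstranded libraries. These 3 genes lie on chromosome 1, the chromosome of Il1r1, at 18.6 Mb (Trak2), 26.7 Mb (Lancl1) and 39.4 Mb (Wdfy1) from it. The edgeR test called no gene within 10 Mb of Il1r1, where 11 of 85 genes were lower without overlap (12.9%, against 6.65% of all genes). Of the 13630 genes tested 776 lie on chromosome 1, and its median log2 fold change was -0.02.

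Pim1 (ENSMUSG00000024014, mm10 chr17:29490753-29496112), a serine/threonine kinase gene that STAT5 induces, was the only gene that edgeR called among 28 measured STAT5 targets and JAK feedback genes, where DESeq2 called 2 lower and limma voom 1 higher and 1 lower. It had 108, 83.6 and 123 CPM in Il1r1KO, against 394, 182 and 314 CPM in VF (log2 -1.50, SE 0.28, adjusted p = 0.0316, edgeR). The groups did not overlap, with VF 6 the lowest VF library, and the fold change without it was log2 -1.75 (adjusted p = 0.00202). The call was lost without any 1 of the other 5 libraries (adjusted p 0.0663 to 0.148). At 2 weeks Pim1 had 157 to 223 CPM in Il1r1KO and 153 to 243 CPM in VF.

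No other gene of that list passed the edgeR test with all libraries. Socs2, a feedback inhibitor, had 221, 245 and 229 CPM in Il1r1KO, against 173, 104 and 154 CPM in VF, higher without overlap but not past the test (log2 0.69, SE 0.28, adjusted p = 0.305). Cish, another feedback inhibitor, had 51.3, 68.9 and 56.95 CPM in Il1r1KO, against 92.9, 59.8 and 140 CPM in VF, with overlap (log2 -0.72, SE 0.39, adjusted p = 0.449). Socs1, which blocks JAK signalling and is also induced by interferon, had 14.7, 24.0 and 26.5 CPM in Il1r1KO, against 34.4, 67.3 and 42.2 CPM in VF (log2 -1.14, SE 0.27, adjusted p = 0.0929). Of the 28 genes 10 were higher and 18 lower, with a median log2 fold change of -0.13, beside 0.01 over all tested genes. Among 11 JAK and STAT genes edgeR, DESeq2 and limma voom called 0, with 3 lower at an unadjusted edgeR p of 0.05 (6.16% of all genes). Jak1 stood at 260, 363 and 362 CPM in Il1r1KO and 483, 322 and 464 CPM in VF (log2 -0.36, adjusted p = 0.275, and log2 -0.53 with adjusted p = 0.0494 without VF 6). Stat5a was at 149, 199 and 230 CPM in Il1r1KO and 212, 218 and 186 CPM in VF, and Stat5b at 148, 162 and 205 CPM in Il1r1KO and 193, 184 and 165 CPM in VF.

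Of 28 measured genes of the IL-1 receptor family and its relay edgeR called 0, while DESeq2 called 3 lower and limma voom 0. At an unadjusted edgeR p of 0.05, 4 were lower (6.16% of all genes). Of the 28, 9 were higher and 19 lower (median log2 -0.21, and -0.10 without VF 6). Among genes of the core of the pathway, Myd88 and Irak1 had fold changes near 0, and that of Il1rap was near the list median. Il1rap, the accessory receptor, had 25.9, 25.2 and 29.7 CPM in Il1r1KO, against 35.8, 37.4 and 19.8 CPM in VF (log2 -0.20, adjusted p = 0.851). Myd88, the adaptor, had 129, 99.3 and 99.8 CPM in Il1r1KO, against 90.5, 117 and 106 CPM in VF (log2 0.07, adjusted p = 0.917). Irak1 had 198, 251 and 280 CPM in Il1r1KO, against 253, 226 and 234 CPM in VF (log2 0.03, adjusted p = 0.964). In all 3 the groups overlapped. The member of lowest p was Peli2, a ubiquitin ligase that modifies IRAK proteins. It had 4.55, 7.44 and 7.26 CPM in Il1r1KO, against 32.4, 11.2 and 16.5 CPM in VF (log2 -1.64, SE 0.39, adjusted p = 0.0861, edgeR; 0.00647 with DESeq2), and edgeR called it without VF 6 (log2 -1.93, adjusted p = 0.0187).

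Several sister receptors lie beside Il1r1 on chromosome 1. Il18rap, the accessory chain of the interleukin-18 receptor, had 14.0, 4.19 and 9.40 CPM in Il1r1KO, against 55.2, 20.04 and 15.2 CPM in VF (log2 -1.71, adjusted p = 0.147). Il18r1 had 0, 0 and 0.50 CPM in Il1r1KO, against 9.71, 2.53 and 4.09 CPM in VF (log2 -4.99, adjusted p = 0.309). The decoy receptor gene Il1r2 had 0.045, 0 and 0.038 CPM in Il1r1KO, against 4.51, 0.80 and 0 CPM in VF (log2 -5.82, adjusted p = 0.223). Both interleukin-18 receptor genes were lower without overlap, and none of the 3 passed the edgeR test, while DESeq2 called Il18rap (adjusted p = 0.0271) and Il1r2 (adjusted p = 0.0435). Nor did edgeR call any other gene counted within 1 Mb of Il1r1, among which Rpl31, a ribosomal protein gene, was higher without overlap (log2 0.37, adjusted p = 0.373).

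Genes that NF-kB and TNF induce mostly had negative fold changes, with 0 called by edgeR, 1 lower by DESeq2 and 0 by limma voom. Of 34 measured, 29 were lower and 4 higher (median log2 -0.39, and -0.33 without VF 6), 11 were lower and 1 higher at an unadjusted p of 0.05 (6.16% and 6.54% of all genes), and 6 were lower without overlap (6.65% of all genes). Ccl4, a chemokine gene, had 3.17, 4.48 and 4.82 CPM in Il1r1KO, against 20.1, 4.96 and 8.58 CPM in VF (log2 -1.43, SE 0.45, adjusted p = 0.198). Birc3, which restrains cell death downstream of TNF receptors, had 31.7, 30.2 and 41.7 CPM in Il1r1KO, against 78.1, 46.4 and 36.3 CPM in VF (log2 -0.63, adjusted p = 0.265). Nfkbia, the inhibitor that NF-kB itself induces, had 196, 136 and 106 CPM in Il1r1KO, against 148, 226 and 152 CPM in VF (log2 -0.27, adjusted p = 0.664). The groups were apart for Ccl4, narrowly at VF 6, and overlapped for the other 2. At 2 weeks the median of the same 34 genes was -0.04. Of 19 NF-kB subunit and inhibitor genes edgeR, DESeq2 and limma voom called 0, with 1 lower at an unadjusted edgeR p of 0.05 (median log2 -0.24).

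The values of the interferon gamma response rested on VF 6. Of 36 measured genes, 34 were lower in Il1r1KO (median log2 -1.14), and 25 were lower at an unadjusted p of 0.05 (6.16% of all genes). Without VF 6, 17 were lower and 19 higher, the median was 0.04, and 1 was called, Upp1 (log2 -1.62, adjusted p = 0.0309), an enzyme gene of pyrimidine salvage. Gbp4 (mm10 chr5:105115767-105139586), a guanylate-binding GTPase that restricts intracellular pathogens, was the only member edgeR called with all libraries, where DESeq2 called 6 lower and limma voom 0. It had 6.47, 2.82 and 6.08 CPM in Il1r1KO, against 12.8, 250 and 36.0 CPM in VF (log2 -4.28, SE 0.82, adjusted p = 0.0350, edgeR). VF 6 was far above both other VF libraries, which still lay above all 3 Il1r1KO libraries, and without VF 6 the call was lost (log2 -2.25, adjusted p = 0.0774). Gbp8 and Gbp9 overlap Gbp4 and may share its reads. Serpina3f, a serpin induced by interferon, had 21.96, 18.8 and 15.5 CPM in Il1r1KO, against 33.3, 312 and 35.3 CPM in VF (log2 -2.76, adjusted p = 0.0731, and log2 -0.87 with adjusted p = 0.269 without VF 6).

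In 3 GTPase genes with higher levels VF 6 also stood apart. Igtp, an immunity-related GTPase, had 191, 132 and 209 CPM in Il1r1KO, against 95.9, 910 and 126 CPM in VF (log2 -1.09, and 0.68 without VF 6). Irgm2 of the same family had 70.2, 93.5 and 126 CPM in Il1r1KO, against 68.2, 421 and 91.6 CPM in VF (log2 -1.002, and 0.28 without VF 6). Tgtp1, a further GTPase of the family, had 404, 345 and 530 CPM in Il1r1KO, against 233, 2210 and 344 CPM in VF (log2 -1.12, and 0.57 without VF 6). In all 3 VF 6 was the highest of the 6 libraries by far, and the sign of the difference turned without it. Type I interferon genes (48 measured, 42 lower, median log2 -0.42) and MHC class II genes (10 measured, 9 lower, -0.95) had medians of 0.08 and 0.29 without VF 6. The edgeR test called 0 members of either list, with 15 and 3 lower at an unadjusted p of 0.05 (6.16% of all genes). In the type I list DESeq2 called 1 and limma voom 4 lower, and in the MHC class II list both called 0. Cd74, the MHC class II invariant chain, had 188, 83.0 and 198 CPM in Il1r1KO, against 78.6, 1089 and 117 CPM in VF (log2 -1.45, and 0.68 without VF 6).

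Promoters of the interferon gamma list and of the called genes were searched for short patterns. The 250 bases upstream of the RefSeq start (GRCm38.p6) were read on both strands for GAAANNGAA, the core of the site of interferon regulatory factors, for TTCNNNGAA, the core of the gamma-activated site that STAT dimers bind, and for GGGANTTTC, an NF-kB site; the first 2 patterns can overlap. Of 36 genes 22 had a sequence, and 14 of these held GAAANNGAA (63.6%, against 8.18% of 27025 genes with a promoter sequence) and 11 held TTCNNNGAA (against 8.13% of all), while 2 held GGGANTTTC (9.09%, against 1.11%). Of the 20 called genes 14 had a sequence, of which 0 held GAAANNGAA, 1 (Trak2) TTCNNNGAA and 1 (Fyb2) GGGANTTTC. Gbp4, the called gene of the interferon gamma list, had no sequence and was not searched. The promoters of 3 GTPase genes are shown because the genes were highest in VF 6 and hold both patterns, the first base of GAAANNGAA lying 11 bases downstream of that of TTCNNNGAA in each. Socs1 is shown for a pair of overlapping GAAANNGAA matches, and Trak2 as the called gene with a TTCNNNGAA match. Capitals mark matches. The windows are chr11:58199306-58199555 (Igtp, plus strand), chr11:58214727-58214976 (Irgm2, plus strand), chr11:48992247-48992496 (Tgtp1, minus strand), chr16:10785537-10785786 (Socs1, minus strand) and chr1:58973483-58973732 (Trak2, minus strand), each printed 5′ to 3′. A match describes the letters and is not a bound site.
Igtp: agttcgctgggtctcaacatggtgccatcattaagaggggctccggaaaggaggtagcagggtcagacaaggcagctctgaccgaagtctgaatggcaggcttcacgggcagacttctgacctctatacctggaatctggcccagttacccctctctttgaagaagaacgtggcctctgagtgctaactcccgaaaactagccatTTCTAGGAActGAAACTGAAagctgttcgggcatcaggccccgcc
Irgm2: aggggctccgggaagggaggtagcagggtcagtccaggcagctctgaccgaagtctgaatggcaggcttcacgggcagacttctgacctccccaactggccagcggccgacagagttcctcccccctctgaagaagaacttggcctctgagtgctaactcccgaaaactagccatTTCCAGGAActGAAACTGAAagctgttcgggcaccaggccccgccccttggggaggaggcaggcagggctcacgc
Tgtp1: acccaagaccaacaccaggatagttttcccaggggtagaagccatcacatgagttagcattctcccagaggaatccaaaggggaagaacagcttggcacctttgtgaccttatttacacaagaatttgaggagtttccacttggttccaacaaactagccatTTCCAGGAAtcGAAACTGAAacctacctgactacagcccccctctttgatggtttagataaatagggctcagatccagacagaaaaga
Socs1: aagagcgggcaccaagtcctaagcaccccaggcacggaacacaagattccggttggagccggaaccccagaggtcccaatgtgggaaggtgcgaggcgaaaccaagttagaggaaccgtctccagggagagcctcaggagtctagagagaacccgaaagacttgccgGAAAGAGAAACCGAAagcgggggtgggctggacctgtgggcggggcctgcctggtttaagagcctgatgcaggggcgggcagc
Trak2: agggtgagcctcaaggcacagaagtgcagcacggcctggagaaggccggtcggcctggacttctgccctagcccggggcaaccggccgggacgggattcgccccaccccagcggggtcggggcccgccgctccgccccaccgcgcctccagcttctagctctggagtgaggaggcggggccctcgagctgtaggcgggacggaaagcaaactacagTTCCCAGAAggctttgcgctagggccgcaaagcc

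**Figure D3:**
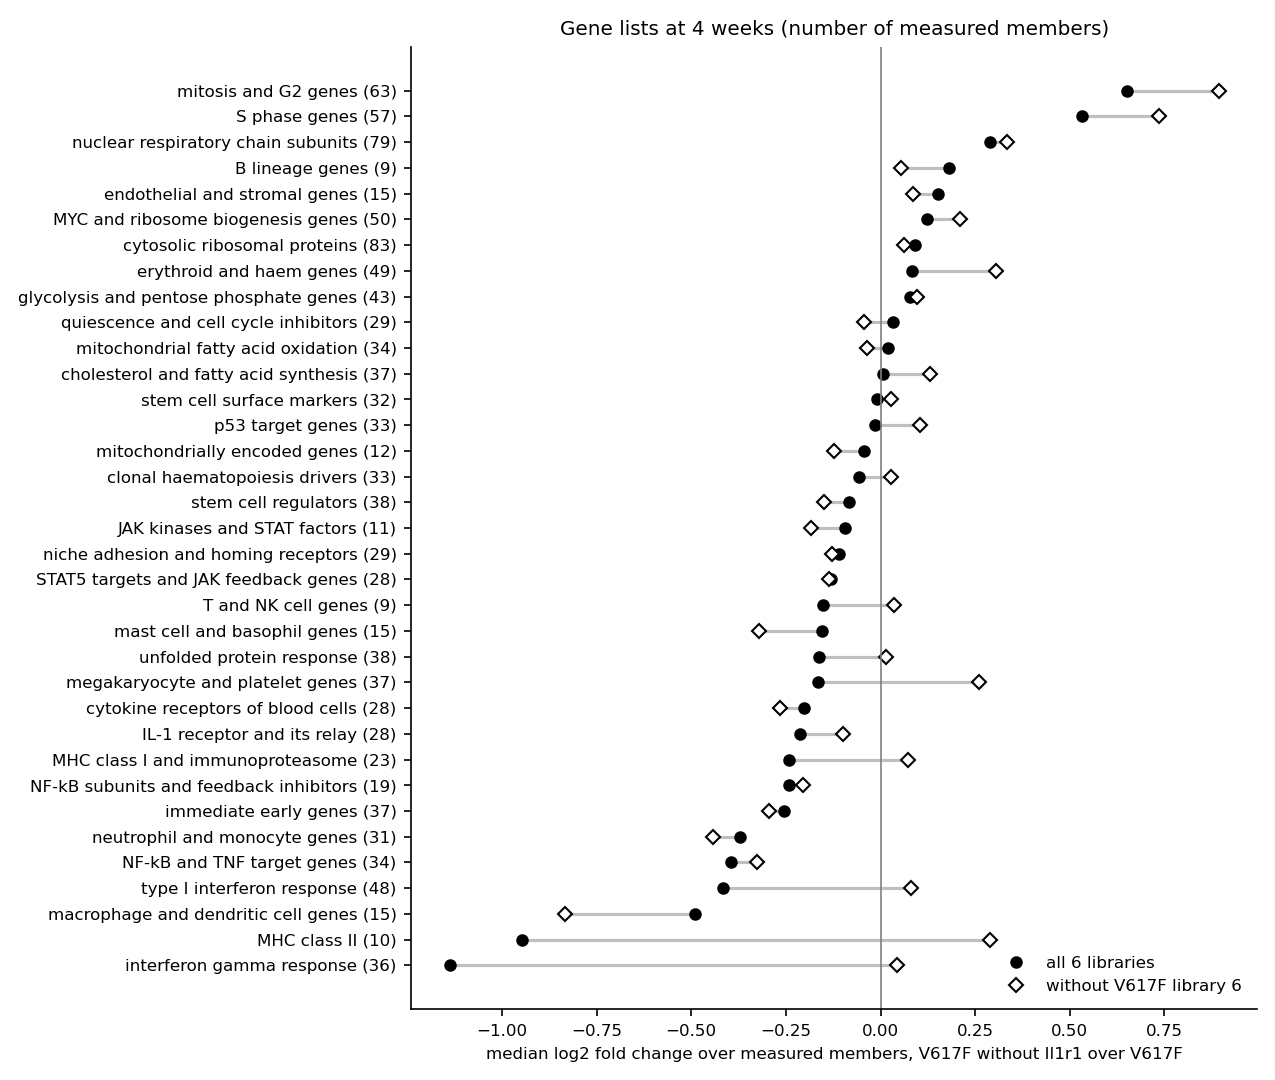
Median log2 fold change of V617F cells without Il1r1 over V617F cells at 4 weeks (x axis) for each of 35 gene lists (y axis, with the number of measured members), over all 6 libraries (filled circles) and without VF 6 (open diamonds). The interferon gamma list moves to 0.04 from -1.14, and the S phase and mitosis lists keep positive medians, at 0.73 and 0.89.

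Cell cycle genes were higher in Il1r1KO as a group, with no member past the edgeR test. All 57 measured S phase genes were higher (median log2 0.53), 30 of them at an unadjusted p of 0.05 (6.54% of all genes) and 26 without overlap (6.46% of all genes). All 63 mitosis and G2 genes were higher too (median log2 0.65), 40 at an unadjusted p of 0.05 and 16 without overlap. Over all tested genes 6954 of 13630 were higher, and the median was 0.01. DESeq2 called 2 S phase and 2 mitosis genes and limma voom 12 and 9, all higher. VF 6 was the VF library with the highest cell cycle level. Without it the medians were 0.73 for S phase and 0.89 for mitosis, and edgeR called 1 S phase gene (Rfc4) and 2 mitosis genes (Ccnb2 and Kif2c). Over the fits that left out 1 of the 6 libraries each, the median ran between 0.37 (without VF 5) and 0.73 for S phase and between 0.43 (without Il1r1KO 5) and 0.89 for mitosis.

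Rfc4, a subunit of the clamp loader of DNA replication, had 167, 97.4 and 96.1 CPM in Il1r1KO, against 42.4, 70.2 and 60.9 CPM in VF (log2 1.05, SE 0.26, adjusted p = 0.104). Psrc1, a spindle protein, had 57.6, 47.8 and 35.3 CPM in Il1r1KO, against 13.8, 22.8 and 19.4 CPM in VF (log2 1.33, SE 0.37, adjusted p = 0.147). Mki67, the proliferation marker, had 436, 341 and 257 CPM in Il1r1KO, against 172, 270 and 201 CPM in VF (log2 0.69, adjusted p = 0.275). Rfc4 and Psrc1 did not overlap, and Mki67 overlapped only between Il1r1KO 7 and VF 6. The mean log2(CPM + 1) over the S phase genes was 6.96, 6.93 and 6.97 in Il1r1KO, against 6.11, 6.76 and 6.40 in VF. Over the mitosis genes it was 7.48, 7.09 and 6.78 in Il1r1KO, against 6.08, 6.84 and 6.46 in VF. S phase levels were thus alike in the Il1r1KO libraries and apart from VF, while mitosis levels overlapped at VF 6. The part of the lower stem cell marker sum and of the other markers in these values was not tested. The same S phase level was 6.22 to 6.40 in Il1r1KO and 6.02 to 6.28 in VF at 2 weeks, and 6.14, 6.83 and 6.69 in the libraries without Il1b at 4 weeks. At 2 weeks 49 of 57 S phase genes were higher too, with a median log2 fold change of 0.12. The mitosis genes went the other way at 2 weeks, with 17 of 63 higher and a median log2 fold change of -0.08. For the difference between the effects at both times, 24 of the 63 mitosis genes had an unadjusted p under 0.05, with 0 called. Of the 57 S phase genes 2 had such a p, with 0 called. Over all tested genes 725 of 13630 had such a p.

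Of 29 genes of quiescence and cell cycle inhibition, 15 were higher and 14 lower, with 0 called by edgeR. At an unadjusted p of 0.05, 4 were higher and 5 lower (6.54% and 6.16% of all genes). DESeq2 called 1 higher and 3 lower, and limma voom 1 higher and 2 lower. Btg1, which restrains proliferation, had 71.1, 50.5 and 50.3 CPM in Il1r1KO, against 107, 86.2 and 91.3 CPM in VF (log2 -0.73, SE 0.16, adjusted p = 0.0731), and it was called without VF 6 (adjusted p = 0.0335). Cdk4, the G1 kinase, had 997, 755 and 720 CPM in Il1r1KO, against 549, 652 and 625 CPM in VF (log2 0.44, SE 0.12, adjusted p = 0.149). Neither overlapped between the groups. Trp53inp1, a p53 target that acts in autophagy and growth arrest, was called lower, at 19.2, 21.0 and 27.5 CPM in Il1r1KO, against 79.0, 47.2 and 51.6 CPM in VF (log2 -1.39, SE 0.27, adjusted p = 0.0358). Stem cell genes were spread around 0: of 38 regulators 15 were higher and 23 lower (median log2 -0.08), and of 32 surface markers 15 were higher and 17 lower (-0.01). The edgeR test called 0 of both lists, with 2 regulators higher and 2 lower and 4 surface markers lower at an unadjusted p of 0.05. DESeq2 called 1 surface marker lower and limma voom 0. Sult1a1, a sulfotransferase gene in the surface marker list, had 14.8, 22.5 and 5.66 CPM in Il1r1KO, against 240, 18.8 and 133 CPM in VF. The groups overlapped at VF 6, and without it edgeR called the gene (log2 -3.70, adjusted p = 0.00288; 0.00148 with DESeq2 and all libraries).

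Nuclear genes of the respiratory chain were higher by a small amount in 75 of 79 (median log2 0.29, and 0.33 without VF 6). Of these, 31 were higher at an unadjusted p of 0.05 (6.54% of all genes), with 0 called by edgeR, 1 by DESeq2 and 2 by limma voom. Atp5d, a subunit of ATP synthase, had 209, 204 and 213 CPM in Il1r1KO, against 127, 175 and 155 CPM in VF (log2 0.45, SE 0.12, adjusted p = 0.1297). Its groups did not overlap, and it was called without VF 6 (adjusted p = 0.0399). The list level was 7.54, 7.05 and 6.96 in Il1r1KO, against 6.87, 7.02 and 6.90 in VF on the mean log2(CPM + 1) scale, so that Il1r1KO 5 stood above all others, and without that library the median was 0.07. The 12 mitochondrially encoded genes had a median of -0.04. Il1r1KO 5 also had the lowest TMM factor of the 6 libraries (0.921, against 0.951 to 1.002 in the other 5).

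**Figure D4:**
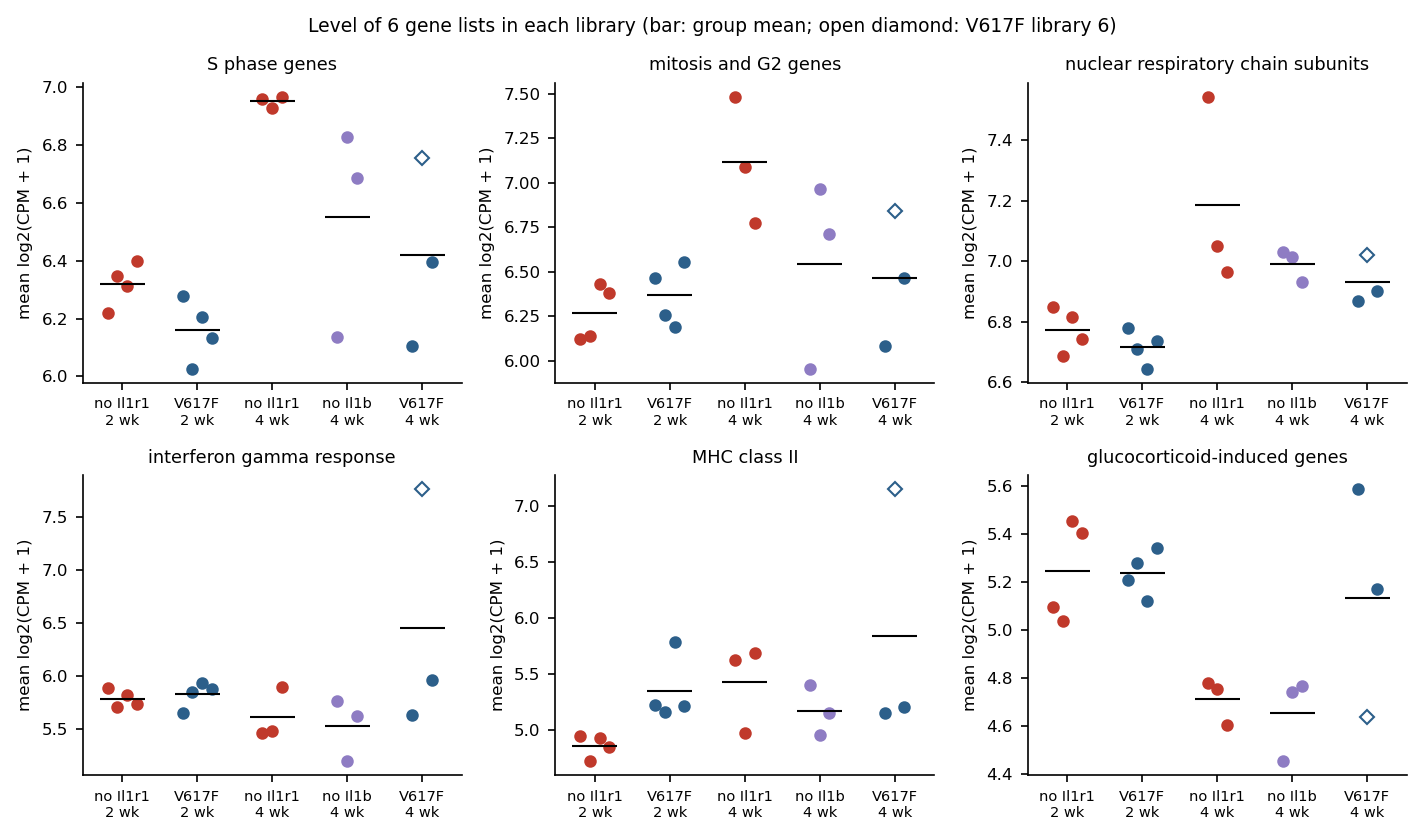
Mean log2(CPM + 1) over the members of 6 gene lists (y axis) in each library of V617F cells without Il1r1 and V617F cells at 2 and 4 weeks and of V617F cells without Il1b at 4 weeks; bars are group means and the open diamond is VF 6. S phase levels of the 3 libraries without Il1r1 at 4 weeks lie at 6.93 to 6.97, above the VF range of 6.11 to 6.76, and VF 6 is the highest library for interferon gamma and MHC class II genes.

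The remaining called genes belong to several functions. Igfbp4, which binds insulin-like growth factors, was higher, at 333, 318 and 325 CPM in Il1r1KO, against 192, 219 and 243 CPM in VF (log2 0.58, SE 0.11, adjusted p = 0.0350). Pih1d1, a subunit of the R2TP chaperone complex, was higher, at 131, 109 and 107 CPM in Il1r1KO, against 65.5, 74.2 and 76.5 CPM in VF (log2 0.68, SE 0.14, adjusted p = 0.0394), and it overlaps Aldh16a1 on the other strand. Fyb2, an adaptor that binds the kinase FYN, had 0 reads in all 3 Il1r1KO libraries, against 3036, 104 and 1389 reads in VF. Its mean was at least 1374-fold lower in Il1r1KO when the group is set to 3 counts in all (adjusted p = 0.0268, edgeR). Such a bound covers counting error only, and limma voom did not call Fyb2 (adjusted p = 0.252). The VF libraries were far apart, at 115, 3.76 and 43.3 CPM. At 2 weeks Fyb2 had 1.18 to 8.81 CPM in Il1r1KO and 1.90 to 13.5 CPM in VF, with overlap (log2 -1.08, not called). The libraries without Il1b at 4 weeks had 0, 3.58 and 13.7 CPM.

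Sec63, a subunit of the endoplasmic reticulum translocon, was also lower. It had 71.1, 82.8 and 93.6 CPM in Il1r1KO, against 122, 114 and 125 CPM in VF (log2 -0.55, SE 0.11, adjusted p = 0.0358). Srp54a and Srp54b, near-identical copies of a subunit of the signal recognition particle between which reads may be split, were called with log2 -0.78 (SE 0.16, adjusted p = 0.0445) and -0.79 (SE 0.16, adjusted p = 0.0358). Srp54b had 72.5, 65.6 and 56.0 CPM in Il1r1KO, against 113, 117 and 107 CPM in VF. None of these 3 genes overlapped between the groups at 4 weeks. At 2 weeks Srp54b had 60.5 to 66.3 CPM in Il1r1KO and 87.1 to 97.1 CPM in VF (log2 -0.53, not called). The SclCre;GFP libraries, without a knockout in their labels, were spread at 62.1, 62.8, 101 and 94.6 CPM of Srp54b. For Srp54a they had 45.1, 42.4, 65.3 and 63.4 CPM. Treml2 (log2 -0.79, adjusted p = 0.0238), Zfp874a (-1.04, 0.0268), Ccdc171 (-1.59, 0.0350) and Tacc1 (-0.75, 0.0394) were also lower without overlap. Slc13a2, a dicarboxylate transporter gene, was the 1 called gene whose groups overlapped, at 1.16, 3.58 and 1.26 CPM in Il1r1KO, against 29.6, 3.15 and 14.7 CPM in VF (log2 -2.98, adjusted p = 0.0436).

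Arntl, whose product BMAL1 drives the circadian clock, was lower, at 18.4, 26.8 and 23.3 CPM in Il1r1KO, against 102, 27.5 and 62.4 CPM in VF (log2 -1.49, SE 0.31, adjusted p = 0.0461). VF 6 lay at the Il1r1KO level and VF 5 and VF 7 above it. A list of glucocorticoid-induced genes and one of clock genes were written after this library order had been seen, and they serve as description only. Of 20 glucocorticoid-induced genes 17 were lower (median log2 -0.54, and -0.27 without VF 5) and VF 6 was the lowest VF library in 13. At an unadjusted p of 0.05, 7 were lower and 2 higher (6.16% and 6.54% of all genes). The edgeR test called 0, DESeq2 1 higher and 2 lower, and limma voom 2 lower. Pdk4 (log2 6.02, at 0 to 0.14 CPM in VF) and Angptl4 (log2 0.77) were the 2 higher at that p, both without overlap. Tsc22d3, a glucocorticoid-induced repressor of inflammation, had 169, 191 and 158 CPM in Il1r1KO, against 1371, 235 and 560 CPM in VF (log2 -2.06, SE 0.47, adjusted p = 0.0814, and log2 -2.48 with adjusted p = 0.00509 without VF 6). Per1, a clock gene that glucocorticoids also induce, had 8.26, 8.17 and 14.0 CPM in Il1r1KO, against 47.3, 10.1 and 23.7 CPM in VF (log2 -1.42, adjusted p = 0.194). Klf9 had 43.8, 41.5 and 51.0 CPM in Il1r1KO, against 161, 45.3 and 87.1 CPM in VF (log2 -1.11, adjusted p = 0.106). Without VF 6 both Per1 (adjusted p = 0.0309) and Klf9 (adjusted p = 0.00172) were called. In Arntl, Tsc22d3, Per1 and Klf9 VF 5 was the highest library. Of 21 clock genes 15 were lower, with Arntl the only one that edgeR called.

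Of 31 neutrophil and monocyte genes, 22 had a negative fold change (median log2 -0.37, and -0.44 without VF 6). The edgeR test called 0, DESeq2 3 lower and limma voom 1 lower, and 4 were lower at an unadjusted edgeR p of 0.05 (6.16% of all genes). Over the fits that left out 1 library each the median of this list ran between -0.60 and 0.16, so its sign rests on single libraries: it was 0.16 without VF 7. Itgam, an integrin of myeloid cells, had 7.14, 5.09 and 17.5 CPM in Il1r1KO, against 74.0, 11.9 and 48.3 CPM in VF (log2 -2.18, SE 0.58, adjusted p = 0.118), and was called without VF 6 (adjusted p = 0.0197). Flt3, a receptor of multipotent progenitors that stem cells of this phenotype largely lack, had 14.3, 18.2 and 19.3 CPM in Il1r1KO, against 220, 15.0 and 26.1 CPM in VF (log2 -2.33, adjusted p = 0.286), so that VF 5 alone was high. Pf4, a platelet chemokine gene, had 481, 155 and 200 CPM in Il1r1KO, against 39.8, 1073 and 75.8 CPM in VF (log2 -0.51, and 2.27 without VF 6). Megakaryocyte genes had a median of -0.16, and of 0.26 without VF 6. Of 37 measured, edgeR called 0, DESeq2 1 lower and limma voom 1 higher, with 4 lower and 0 higher at an unadjusted edgeR p of 0.05. The member of lowest p, Thbs1, had 10.7, 1.16 and 3.78 CPM in Il1r1KO, against 117, 48.3 and 64.1 CPM in VF. Its fold change was log2 -3.88 (adjusted p = 0.112, edgeR; 0.0121 with DESeq2), and -4.12 without VF 6. Apoe, an apolipoprotein gene also expressed by macrophages, had 837, 564 and 469 CPM in Il1r1KO, against 166, 300 and 365 CPM in VF, higher without overlap (log2 1.17, SE 0.33, adjusted p = 0.147, edgeR; 0.0425 with DESeq2). The part of these markers in the cell cycle and interferon values was not tested.

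Whether receptor loss acted differently at 4 than at 2 weeks was asked with the difference of both effects, in which each library enters once. At an adjusted p of 0.05, edgeR called 0 genes (0.0%), with 725 at an unadjusted p of 0.05, while DESeq2 called 22 and limma voom 5. The lowest adjusted p was that of Sec63 (difference of log2 fold changes -0.76, adjusted p = 0.232), which did not pass. At 2 weeks itself 7 genes were called (0.0514%), and 4 of the 20 genes called at 4 weeks were among them: Trak2, Lancl1, Wdfy1 and Mid1. Trak2 had 27.2 to 37.5 CPM in Il1r1KO and 56.6 to 62.1 CPM in VF at 2 weeks (log2 -0.82, SE 0.13, adjusted p = 0.0149). Lancl1 had 69.4 to 75.6 CPM in Il1r1KO and 124 to 152 CPM in VF (log2 -0.96, SE 0.13, adjusted p = 0.00373), and Wdfy1 29.9 to 44.5 CPM in Il1r1KO and 143 to 173 CPM in VF (log2 -2.02, SE 0.34, adjusted p = 0.0194). The 3 genes on chromosome 1 were thus lower without overlap at both times. Of the 20 genes, 16 had the same sign at 2 weeks.

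Mid1, a ubiquitin ligase gene that spans the pseudoautosomal boundary of the mouse X chromosome, was near 0 in Il1r1KO. It had 0.22, 0.43 and 0.076 CPM in Il1r1KO, against 26.5, 4.88 and 22.9 CPM in VF (log2 -6.17, SE 1.11, adjusted p = 0.0268). At 2 weeks it had 0.39 to 0.96 CPM in Il1r1KO and 13.6 to 26.6 CPM in VF (log2 -5.06, adjusted p = 0.0305). The libraries without Il1b at 4 weeks had 0, 0.48 and 0.28 CPM (log2 -6.19 against the same VF libraries, adjusted p = 0.0156).

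**Figure D5:**
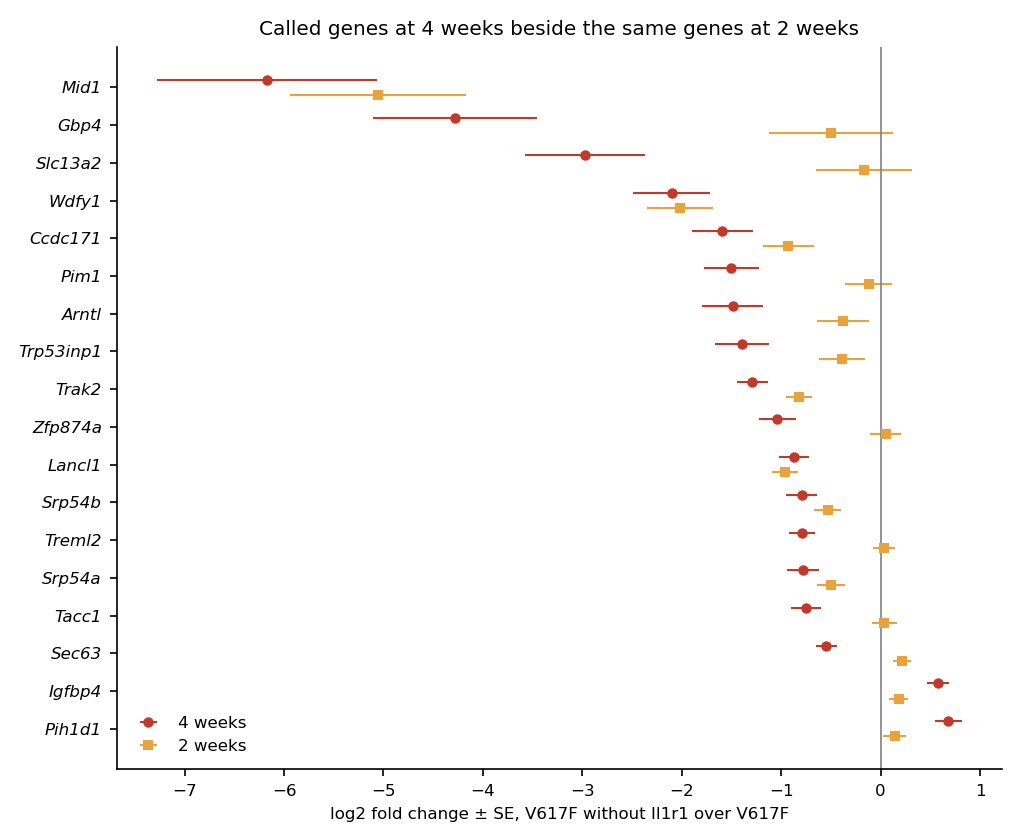
Log2 fold change with its SE (x axis) of V617F cells without Il1r1 over V617F cells at 4 weeks (red circles) and 2 weeks (orange squares) for genes called at 4 weeks; Fyb2, with 0 reads in the libraries without Il1r1 at 4 weeks, is left out. Wdfy1 and Lancl1 have like values at both times, and Pim1 is at -1.50 at 4 weeks and -0.12 at 2 weeks.

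The receptor and ligand knockouts were compared directly at 4 weeks. The fold changes take no VF level, but the scaling and the spread come from the fit of all 25 libraries, VF included. Of 13630 genes 16 were called (0.117%), 8 higher and 8 lower in Il1r1KO, while 2107 had an unadjusted p under 0.05. Trak2 was again the gene of lowest adjusted p, at 31.8, 23.3 and 23.1 CPM in Il1r1KO, against 73.4, 53.5 and 53.1 CPM without Il1b (log2 -1.20, SE 0.15, adjusted p = 7.3e-04, edgeR). Dock2, a guanine nucleotide exchange factor for RAC in blood cells, was higher, at 240, 251 and 296 CPM in Il1r1KO, against 110, 110 and 119 CPM without Il1b (log2 1.22, SE 0.20, adjusted p = 0.00813). Purb, a single-stranded DNA-binding protein, was higher, at 130, 129 and 126 CPM in Il1r1KO, against 64.4, 72.9 and 73.8 CPM without Il1b (log2 0.87, SE 0.13, adjusted p = 0.00486). Each of the 3 was apart in all libraries. Cpt1a, the gate of mitochondrial fatty acid oxidation, was lower, at 97.0, 110 and 119 CPM in Il1r1KO, against 265, 145 and 176 CPM without Il1b (log2 -0.85, SE 0.16, adjusted p = 0.0234). Of the other genes named by the rule, Strap (0.73), Tpm4 (1.69) and Arhgef16 were higher and Chrnb1 (-2.22), Avl9 (-0.82) and Dip2c (-2.32, as log2 fold changes) lower, and Arhgef16 had 0 reads in all 3 libraries without Il1b. Without Il1bKO 5, 12 genes were called, without Il1r1KO 5 10, without Il1bKO 7 56 and without Il1bKO 6 365. DESeq2 called 281 genes and limma voom 2, and an edgeR fit of only these groups called 0.

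Both knockouts were set against the same VF libraries, so their likeness there is no independent evidence. Against VF, 17 genes were called in the libraries without Il1b at 4 weeks (0.125%). Pim1 had a log2 fold change of -1.50 (SE 0.28) in Il1r1KO and -1.02 (adjusted p = 0.116) without Il1b, Gbp4 of -4.28 and -4.47, and Igfbp4 of 0.58 and 0.77. The genes on chromosome 1 had log2 fold changes without Il1b of -0.09 (Trak2), -0.33 (Lancl1) and -0.25 (Wdfy1), none of them called. The medians of the S phase and mitosis lists were 0.53 and 0.65 in Il1r1KO and 0.25 and 0.13 without Il1b, and those of the interferon gamma list -1.14 and -1.06.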

How the data were processed

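RNA was sequenced from sorted stem cells with SMART-Seq v4 libraries, per the labels' protocols, in which reads keep no strand. The authors deposited a table of raw gene counts for 25 libraries. The submitters' processing notes name FastQC 0.11.5, STAR 2.7.10a, featureCounts, R 4.2.2 and the build mm10, with no version for featureCounts. The table holds 13641 genes and 4 construct sequences, and its lowest row maximum is 32 reads, so genes of low counts are not among those analysed here. Some genes are not reported here. Symbols and positions came from GENCODE vM21 (13623 genes matched) and promoters from RefSeq GRCm38.p6.

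Counts were scaled with TMM factors and filtered with filterByExpr, which left 13630 genes. All 25 libraries were fitted in 7 groups with edgeR 4.0.16 (robust quasi-likelihood, 18 residual degrees of freedom, common dispersion 0.169, R 4.3.3), and p-values were adjusted by Benjamini and Hochberg over all genes, with calls at 0.05. Fold changes are log2, knockout over V617F, and levels are CPM, counts per 1e6 counts, with TMM factors. DESeq2 1.42.0 and limma 3.58.1 (voom with quality weights), other scalings and filters, a replicate block and fits without single libraries were the alternatives. Constructs were compared as log2(CPM + 1) with exact two-sided permutation tests. On simulated counts for 13613 genes the main comparison recovered 52 of 100 genes changed by 1 on the log2 scale and 82 of 100 changed by 2, with 4 unchanged genes called.

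Named genes were Il1r1, Il1rap, Il1b, Myd88, Jak2, Socs2, Cish and Pim1, up to 12 called genes a direction, up to 4 called members of each list, the member of lowest p and of highest level of a list with none, genes within 1 Mb of Il1r1, and 5 genes a direction in the 2 other comparisons. Genes named with values beyond this rule (Ccnb2, Cdk4, Igtp, Irgm2, Kif2c, Mki67, Pf4, Socs1, Stat5a, Stat5b, Tgtp1 and Upp1) were chosen after their values were seen. The members, the 35 lists and the tests were chosen with earlier results of these data known, and 2 more lists were added later. Replicate numbers gave no sign of pairing: same-numbered libraries had correlations of deviations of -0.024, -0.028 and -0.18, beside -0.12 to 0.18 in the other pairs. So few values cannot show whether same-numbered libraries were handled together.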

Additional observations from a re-analysis of the deposited data

Results flagged for a closer look

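Among the named genes, Bod1 and Sec63 had groups that did not overlap at either time and lay in opposite directions at 4 and 2 weeks. Both were named among the genes of lowest p for the difference between the times, a choice that favours this pattern. How many of all tested genes show it was not counted. Bod1, a regulator of chromosome segregation, had 57.7, 44.2 and 51.4 CPM in Il1r1KO, against 41.1, 33.2 and 34.4 CPM in VF at 4 weeks. At 2 weeks it had 38.2, 47.3, 42.8 and 44.3 CPM in Il1r1KO, against 52.98, 47.6, 51.8 and 51.3 CPM in VF. The effects differed by 0.736 on the log2 scale (adjusted p = 0.579, edgeR). Sec63 had 71.1, 82.8 and 93.6 CPM in Il1r1KO, against 122, 114 and 125 CPM in VF at 4 weeks. At 2 weeks it had 118, 115, 123 and 131 CPM in Il1r1KO, against 93.7, 114, 104 and 108 CPM in VF. The effects differed by -0.763 (adjusted p = 0.232). Neither difference passed the test. At 2 weeks the groups were only narrowly apart, at 47.3 against 47.6 CPM for Bod1 and 115 against 114 CPM for Sec63.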

How the results depend on the processing

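The 20 calls at 4 weeks remained called with DESeq2, RLE or upper-quartile factors, without a filter and when 3 libraries had to reach 5 CPM, and no called gene changed sign under any alternative run. The number called was 231 with DESeq2, 406 with limma voom, 83 without Il1bKO 5 and 1 with only the groups compared. Leaving out 1 of the 6 libraries gave 1 (without Il1r1KO 6) to 139 calls (without VF 6). With the replicate block 5 genes were called, 4 of them among the 20. Whether the numbers pair the libraries could not be told. For the difference between 4 and 2 weeks, 0 calls became 22 with DESeq2, 5 with limma voom, 0 with the replicate block and 0 to 2 with 1 library left out. For Il1r1KO against Il1b loss, 16 calls became 281 with DESeq2, 2 with limma voom, 5 with the replicate block, 0 with only the groups compared and 10 (without Il1r1KO 5) to 365 (without Il1bKO 6) with 1 library left out. The cause of these shifts was not tested. Constructs kept their direction in each alternative, with log2 differences of 0.917 to 1.251 for the GFP construct, 0.328 to 0.499 and 0.698 to 0.934 for the JAK2 parts and 0.557 to 1.052 for CreERT2. With 3 libraries a side, single libraries decide many calls.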

Other observations

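The 4 SclCre;GFP libraries at 2 weeks carry neither V617F nor a knockout in their labels. In them Wdfy1 ranged between 29.6 and 179 CPM and Mid1 between 1.53 and 29.7 CPM. Wdfy1 was at 32.6 to 36.0 CPM in Il1r1KO and 136 to 169 CPM in VF at 4 weeks, and Mid1 at 0.076 to 0.43 CPM in Il1r1KO and 4.88 to 26.5 CPM in VF. At 2 weeks, the batch of the SclCre;GFP libraries, Wdfy1 was at 29.9 to 44.5 CPM in Il1r1KO and 143 to 173 CPM in VF. Mid1 was then at 0.39 to 0.96 CPM in Il1r1KO and 13.6 to 26.6 CPM in VF. At both times the SclCre;GFP libraries thus spanned the values of both groups for Wdfy1, and lay above all Il1r1KO libraries for Mid1. The SclCre;GFP libraries at 1.53 and 4.07 CPM of Mid1 also lay below every VF library.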
